A study of Rattus norvegicus with 2 samples.

Results

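The ligands of the EGF family and the ErbB receptors they bind were described by their mRNA levels in rat retina. The members were 10 genes, 7 ligands (Hbegf, Areg, Ereg, Epgn, Btc, Tgfa and Egf) and 3 receptors (Egfr, Erbb2 and Erbb3), chosen by gene symbol in a table of 32662 genes. A gene of that symbol was found for 9 of the 10; Egf was not analysed here. RNA-seq libraries depleted of ribosomal RNA were made from whole retinas of Long-Evans rats aged 2 months. One group (CTRL) had a sham procedure, and the other (IR12) had ischemia and was collected 12 h after the start of reperfusion. Each group had 1 library, so no difference between them has a replicate check and no test was made. Levels are given as FPKM, fragments per kilobase of transcript and of sequencing depth, a scale on which different genes can be set side by side.

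EGF-family ligands are made as proteins anchored in the cell membrane, and metalloproteases of the ADAM family cut many of them loose. Bound ligand brings ErbB receptors together in pairs, and the paired receptors switch on the Ras-ERK, PI3K-AKT and STAT3 routes, which raise genes for growth and for feedback inhibitors. In the retina EGF receptor signalling is known above all for the proliferative response of Müller glia, the radial glia that span the tissue, and HB-EGF is one of the factors that drive Müller glia to divide after injury in zebrafish.

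The tissue label was checked first. Gnat1, the gene of rod transducin, stood at 4027 FPKM in CTRL and 4237 FPKM in IR12, and the 5 rod genes together at 14831 and 18254 FPKM. Both libraries therefore held the RNA of a rod-rich retina. The libraries stood apart in lens genes: all 5 were at least 2-fold lower in IR12, with a summed level of 59.4 FPKM in CTRL and 7.09 FPKM in IR12. Small non-coding RNAs also took unequal shares of the summed FPKM, 67.8% in CTRL and 46.0% in IR12. The part of these differences in the results was not tested.

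The depth behind the values could be read from the steps between low values. In single-exon olfactory receptor genes of known length, the CTRL value of 1 read per 1000 effective bases (the transcript length less 202 bases) was 0.0649 FPKM, and the IR12 value 0.0380 FPKM. On this measure 42 of 42 values above 0 in CTRL and 117 of 117 in IR12 came out as whole reads, within 1%. The values used to fit the measure are among them, so the count is not an independent check. A given FPKM thus rested on 1.71 times as many reads in IR12 as in CTRL.

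A gene was compared when it reached 1 FPKM in at least 1 library, and its difference was expressed as log2 of (FPKM + 1) in IR12 over CTRL, which understates the differences of weakly expressed genes. Of the 9 members found, 4 reached that level: Hbegf, Btc, Tgfa and Egfr. Of these the ligands Hbegf and Btc (2 of 4) passed 2-fold on the higher side in IR12, and 0 of the 4 on the lower side. Among all 13599 genes compared in the same way, 6.56% were at least 2-fold higher and 6.12% at least 2-fold lower, with a median log2 ratio of 0.02. With both FPKM columns rescaled to the same sum (TPM scale) the split over all genes became 21.0% higher and 3.23% lower, and the median log2 ratio of genes at 1 or more in both libraries moved from 0.03 to 0.60. On that scale 2 members were again higher and 0 lower.

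**Figure D1:**
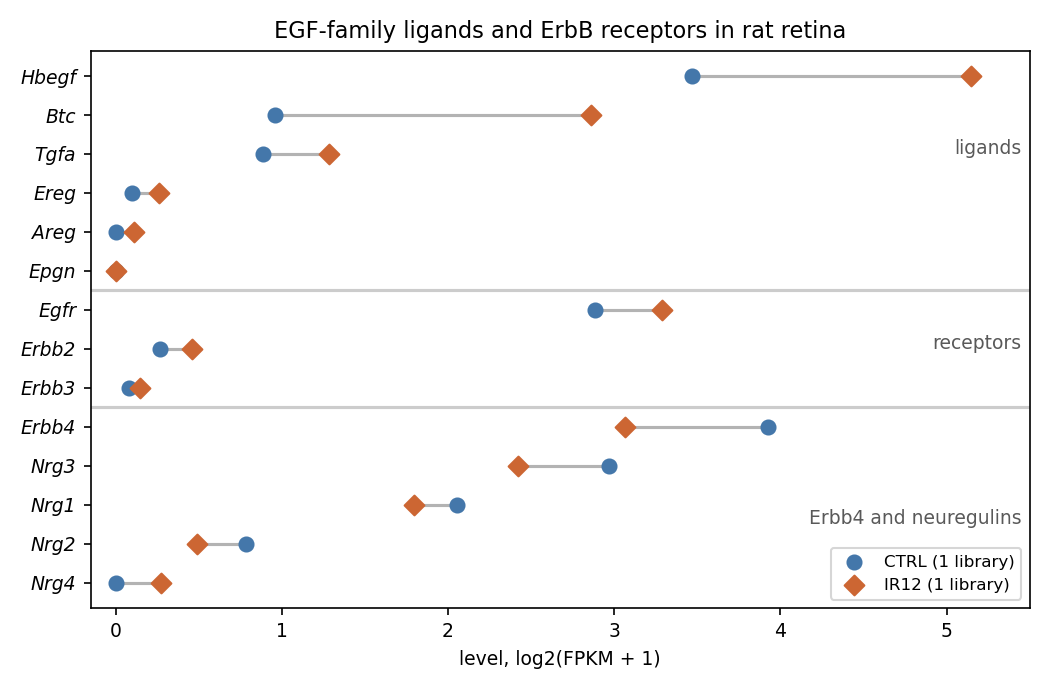
Level of each gene in the 2 libraries, as log2(FPKM + 1), with a circle for CTRL and a diamond for IR12, 1 library each. Hbegf and Btc lie further right in IR12, while Erbb4, Nrg3 and Nrg1 lie further left as deposited; on the TPM scale Nrg1 turns to the other side.

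Hbegf (ENSRNOG00000018646; chr18:29329764-29340403, build rn6) encodes heparin-binding EGF-like growth factor, a ligand of EGFR and ErbB4. Its level was 10.1 FPKM in CTRL and 34.4 FPKM in IR12, which is 155 and 905 reads per 1000 effective bases. The ischemic retina thus had the higher level of the ligand that was most abundant in both libraries. The ratio was 3.42-fold (log2 ratio 1.68), with a 95% exact (Clopper-Pearson) interval of 2.88 to 4.08 for a transcript of 1000 effective bases. Such intervals cover counting error only, and the transcript lengths themselves were not analysed here. Among the 13599 genes compared, Hbegf ranked 368 from the top by log2 ratio. Its place by level among genes of at least 1 FPKM went from percentile 42.0 in CTRL to 73.2 in IR12.

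Btc (ENSRNOG00000002728; chr14:18231860-18272484) encodes betacellulin, which like HB-EGF binds EGFR and ErbB4. Its level was 0.945 FPKM in CTRL and 6.26 FPKM in IR12, or 14.6 and 164.6 reads per 1000 effective bases. Betacellulin mRNA was under 1 FPKM in the sham retina, and it stayed below Egfr in both libraries. The ratio was 6.62-fold (log2 ratio 1.90; interval 3.79 to 11.8), and Btc ranked 287 from the top. Its ratio exceeded that of Hbegf by FPKM alone, and rescaling a whole library leaves that order unchanged. The log2 ratio with 1 added was also higher for Btc as deposited. On the TPM scale the log2 ratios were 2.25 for Btc and 2.27 for Hbegf, a change of order that comes from the added 1.

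**Figure D2:**
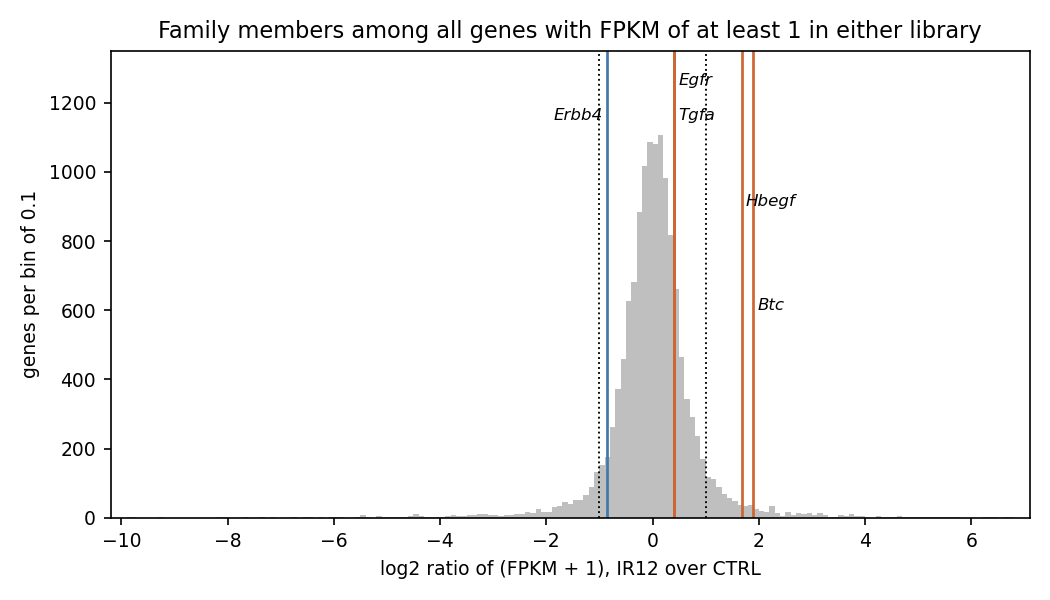
Number of genes in each bin of 0.1 of the log2 ratio of (FPKM + 1), IR12 over CTRL, for the 13599 genes compared. Lines mark Hbegf (1.68), Btc (1.90), Tgfa (0.40), Egfr (0.40) and, in blue, Erbb4 (-0.86), and dotted lines mark 2-fold.

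Tgfa (chr4:117962319-118046344) encodes transforming growth factor alpha, a ligand of EGFR. Its level was 0.845 FPKM in CTRL and 1.43 FPKM in IR12, or 13.0 and 37.7 reads per 1000 effective bases. The log2 ratio of 0.40 did not reach 2-fold, and the interval of the 1.69-fold ratio, 0.892 to 3.50, held 1. In the sham retina Tgfa and Btc stood next to each other, and in the ischemic retina they were well apart.

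The remaining ligands were near the lower end of what the libraries could measure. Ereg, the gene of epiregulin, a ligand of EGFR and ErbB4, was at 0.0685 FPKM in CTRL and 0.200 FPKM in IR12, or 1.06 and 5.28 reads per 1000 effective bases. Areg, the gene of amphiregulin, which binds EGFR, was listed at 0 in CTRL and at 0.0811 FPKM in IR12, or 2.13 reads per 1000 effective bases. Epgn, the gene of epigen, another EGFR ligand, was listed at 0 in both libraries, as were 13562 genes of the table. No fold was computed for these genes, which stayed under 1 FPKM in both retinas.

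Shares within a library do not depend on the scaling between libraries. The 6 ligands summed to 11.9 FPKM in CTRL and 42.3 FPKM in IR12. Hbegf made up 84.4% of this sum in CTRL and 81.2% in IR12. The share of Btc was 7.93% in CTRL and 14.8% in IR12. That of Tgfa was 7.09% and 3.38%. HB-EGF was thus the main ligand mRNA of both retinas, while betacellulin and TGF-alpha mRNA, nearly level in the sham retina, differed in their shares after ischemia. The ratio of Hbegf to Btc was 10.6 in CTRL and 5.49 in IR12.

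**Figure D3:**
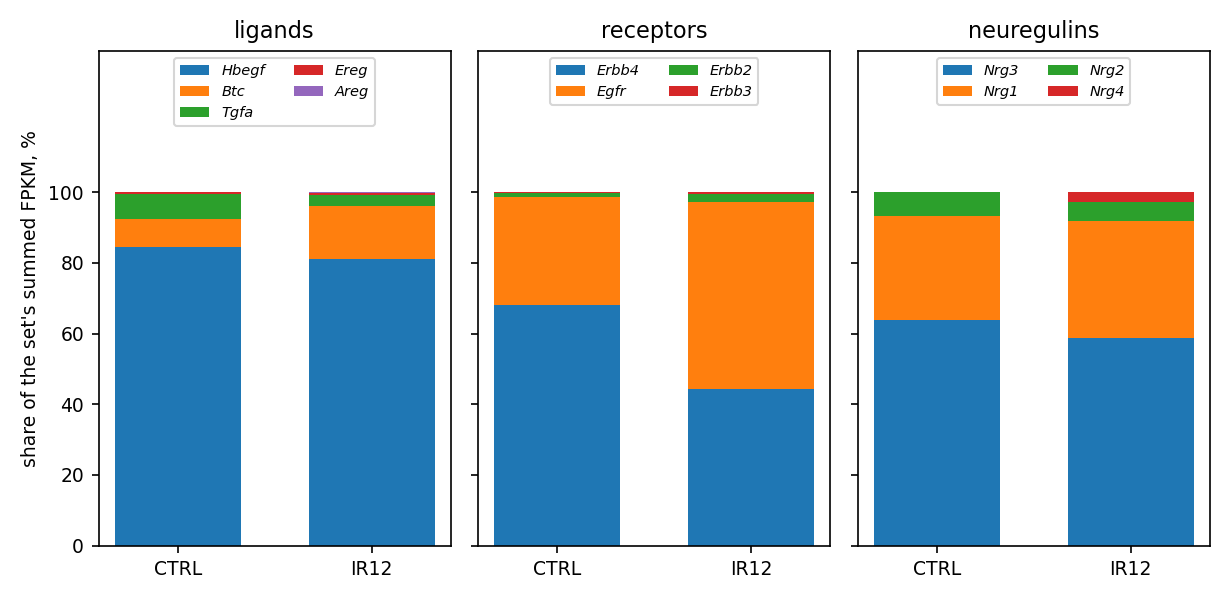
Share of each gene in the summed FPKM of the ligands, the receptors and the neuregulins, in percent, with 1 bar per library. Hbegf holds 84.4% and 81.2% of the ligand sum, and Egfr 30.6% and 52.7% of the receptor sum.

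Egfr (ENSRNOG00000004332; chr14:99919485-100098796) encodes the receptor that binds all the ligands above. Its level was 6.38 FPKM in CTRL and 8.75 FPKM in IR12, or 98.3 and 230.3 reads per 1000 effective bases. The values lay close together, with a 1.37-fold ratio (log2 ratio 0.40; interval 1.08 to 1.76) that did not reach 2-fold. The log2 ratio was above 0 under each scaling, at 0.96 on the TPM scale, or 0.36 above the median gene there, and at 0.31 with small RNAs left out of the scaling. Egfr stood at percentile 30.9 by level in CTRL and 37.3 in IR12.

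Erbb2 and Erbb3 stayed under 1 FPKM in both libraries. Erbb2, a receptor with no known ligand of its own that serves as partner for the others, was at 0.201 FPKM in CTRL and 0.372 FPKM in IR12, or 3.10 and 9.80 reads per 1000 effective bases. Erbb3, a neuregulin receptor with a weak kinase, was at 0.0566 and 0.106 FPKM, or 0.872 and 2.79 reads per 1000 effective bases. Egfr exceeded Erbb2 by 31.7 times in CTRL and by 23.5 times in IR12. By level, the members stood in the order Hbegf, Egfr, Btc, Tgfa, Erbb2, Ereg and Erbb3 in each library, with Areg and Epgn last. No spread is known for these places.

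The fourth receptor of the family, Erbb4, and the neuregulins, which are the ligands of ErbB3 and ErbB4, were listed as the nearest relatives of the members. Erbb4 was at 14.2 FPKM in CTRL and 7.37 FPKM in IR12, a log2 ratio of -0.86 that did not reach 2-fold. Nrg3, an ErbB4 ligand of neurons, was at 6.84 and 4.36 FPKM (log2 ratio -0.55). Nrg1, which binds ErbB3 and ErbB4, was at 3.15 and 2.47 FPKM (log2 ratio -0.26). These 3 genes were lower in IR12 as deposited, but on the TPM scale the log2 ratios were -0.27 for Erbb4, -0.00 for Nrg3 and 0.21 for Nrg1, so that Nrg1 turned direction. Relative to the median gene on that scale they were -0.87, -0.60 and -0.39. Nrg2 was at 0.723 and 0.402 FPKM, and Nrg4 was listed at 0 in CTRL and at 0.209 FPKM in IR12. Of the 5 genes 3 were compared, and 0 were past 2-fold in either direction, with a median log2 ratio of -0.55 beside 0.02 over all genes.

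The receptor mix differed between the libraries. Of the summed FPKM of the 4 receptors, 20.8 in CTRL and 16.6 in IR12, Erbb4 held 68.1% in CTRL and 44.4% in IR12. Egfr held 30.6% and 52.7%. The most abundant ErbB receptor mRNA was therefore Erbb4 in the sham retina and Egfr in the ischemic retina. In IR12 Egfr and Erbb4 lay close, at 8.75 and 7.37 FPKM, and no spread is known for this order. The ratio of Egfr to Erbb4 was 0.450 in CTRL and 1.19 in IR12, 2.64 times as high. The ratio of Hbegf to Egfr was 1.58 and 3.93, 2.49 times as high, and summed ligands over summed Egfr, Erbb2 and Erbb3 gave 1.80 and 4.59.

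Of 8 genes for the release of the ligands, 6 were compared, and 0 were at least 2-fold higher or lower by the log2 ratio, with a median of 0.69 and 5 of the 6 above 0. Adam17, the main protease that frees HB-EGF, amphiregulin, epiregulin and TGF-alpha, was at 12.6 FPKM in CTRL and 22.7 FPKM in IR12 (log2 ratio 0.80). Adam10, which frees betacellulin and EGF, was at 33.5 and 23.2 FPKM, a log2 ratio of -0.51 that became 0.11 on the TPM scale. Relative to the median gene on that scale it was -0.49. Neither protease gene reached 2-fold. Adam9 was the most abundant, at 62.4 and 99.6 FPKM (log2 ratio 0.67). The metalloprotease genes Adam12 and Adam19 had log2 ratios of 0.91 and 0.72, and by FPKM alone Adam12 was 2.84-fold higher in IR12. Rhbdf2, the gene of an inactive rhomboid protein needed for ADAM17 to mature, was at 0.451 and 1.19 FPKM (log2 ratio 0.60), which is 2.65-fold by FPKM alone. On the TPM scale 4 of these genes were past 2-fold on the higher side, where 21.0% of all genes were.

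The inhibitors of ErbB receptors and of Ras comprised 15 genes, all compared. At least 2-fold higher were 2, and 0 were at least 2-fold lower, with a median log2 ratio of 0.22. Over all genes the shares were 6.56% and 6.12%. Spry2, a feedback inhibitor of receptor tyrosine kinase signalling, was at 5.29 FPKM in CTRL and 23.6 FPKM in IR12 (log2 ratio 1.97). Spred3, of the related Spred group of inhibitors, was at 0.637 and 3.26 FPKM (log2 ratio 1.38). The other genes of these families, Spry1, Spry4, Spred1 and Spred2, had log2 ratios from -0.39 to -0.19 as deposited and from 0.09 to 0.27 on the TPM scale. Relative to the median gene on that scale they ran from -0.51 to -0.33. The Spry and Spred families thus lay on both sides of 0 as deposited. Errfi1, whose product MIG6 blocks the kinase of ErbB receptors, was at 10.6 and 13.4 FPKM (log2 ratio 0.31); like Spry1, Spry4 and Spred1 it was named after its values were seen. Socs5, which promotes the breakdown of EGFR and was the most abundant in IR12, was at 39.9 and 60.6 FPKM (log2 ratio 0.59), while in CTRL Lrig2, at 53.0 FPKM, was the most abundant. The lowest log2 ratios belonged to Lrig3 (-0.65), Cblb (-0.44) and Spred2 (-0.39), and on the TPM scale they were -0.23, 0.14 and 0.09. Relative to the median gene there, these were -0.83, -0.46 and -0.51. By FPKM alone Lrig3 was 2.03-fold lower in IR12.

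The signal relay from the receptors comprised 25 genes, all compared, of which 1 was at least 2-fold higher and 0 at least 2-fold lower, with a median log2 ratio of 0.13. That gene was Stat3, the transcription factor of the STAT3 route, at 17.7 FPKM in CTRL and 120.2 FPKM in IR12 (log2 ratio 2.69). Next came the Ras gene Nras, at 18.6 and 32.5 FPKM (log2 ratio 0.78), and the adaptor gene Shc1, at 6.21 and 11.3 FPKM (log2 ratio 0.77). The core of the Ras-ERK and AKT routes thus lay mostly within 2-fold, as did most genes. Over all genes compared, 6.56% were at least 2-fold higher and 6.12% at least 2-fold lower. Sos1, which loads Ras with GTP, was among the lowest, at 31.1 and 22.9 FPKM, with a log2 ratio of -0.43. On the TPM scale it was 0.20, but -0.40 relative to the median gene there.

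Genes that ERK signalling is known to raise comprised 16, of which 14 were compared. At least 2-fold higher were 9 and at least 2-fold lower 1, with a median log2 ratio of 1.44. Over all genes the shares were 6.56% and 6.12%. The list was chosen with earlier results of these data known. Phlda1, at a log2 ratio of 1.003, lay at the limit, and 8 genes were higher when ratios were centred on the median gene or small RNAs were left out of the scaling. Fosl1, an AP-1 subunit, was listed at 0 in CTRL and was at 33.4 FPKM in IR12. Myc was at 0.0911 and 7.79 FPKM, with 1.40 reads per 1000 effective bases in CTRL. Both were near or at 0 in the sham retina and well measured in the ischemic one. Dusp6, a phosphatase that switches ERK off, was the most abundant by its IR12 level, at 3.94 FPKM in CTRL and 36.8 FPKM in IR12 (log2 ratio 2.94). The other 6 genes on the higher side, named after their values were seen, were Ccnd1, Ier3, Plaur, Dusp5, Fos and Phlda1, with Plaur listed at 0 in CTRL. Dusp4, a phosphatase of nuclear MAP kinases, was on the lower side, at 15.4 and 6.52 FPKM (log2 ratio -1.12), and on the TPM scale its log2 ratio was -0.53. Egr1 and Dusp1 had log2 ratios of -0.65 and -0.42, and on the TPM scale these were -0.07 and 0.19. Relative to the median gene on that scale, Dusp4 was at -1.13, Egr1 at -0.67 and Dusp1 at -0.41. Pathways other than ErbB signalling are also known to raise these genes.

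**Figure D4:**
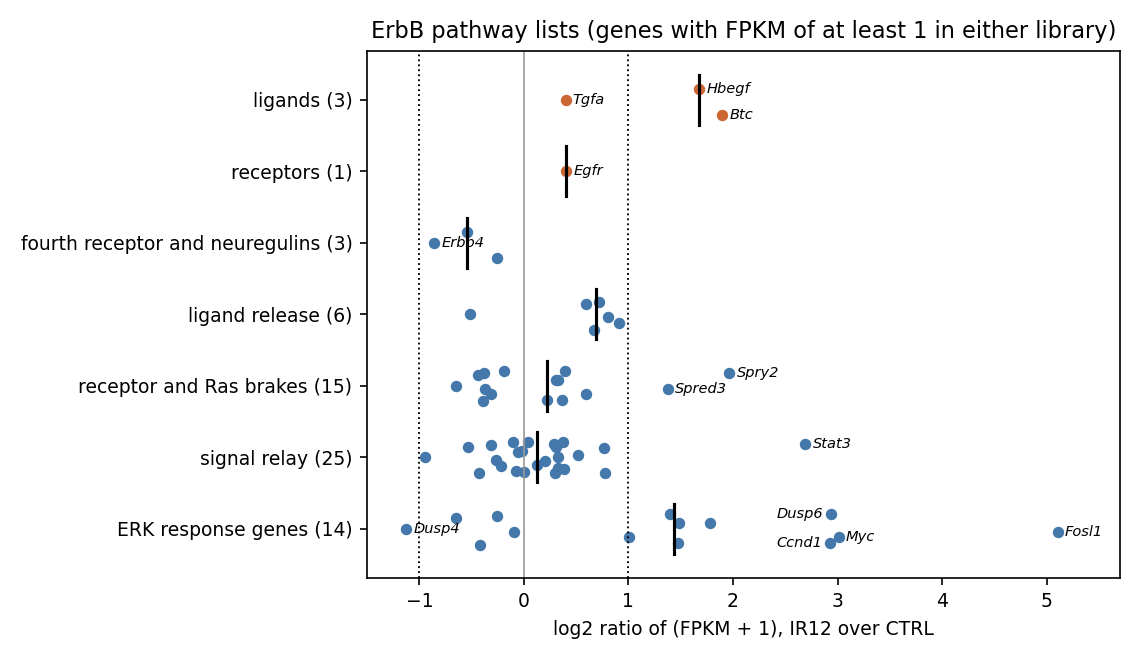
Log2 ratio of (FPKM + 1), IR12 over CTRL, of each gene compared in the member lists (orange) and the pathway lists (blue), as deposited, with a black bar at each median, dotted lines at 2-fold and the number compared in brackets. The medians run from -0.55 for Erbb4 and the neuregulins, 0.00 on the TPM scale, to 1.68 for the ligands.

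Several cell type markers differed between the libraries along with Hbegf, Btc and the receptor mix. In bulk tissue fewer cells of a type and less RNA per cell cannot be told apart. Over all genes compared, 6.56% were at least 2-fold higher and 6.12% at least 2-fold lower. All 6 Müller glia genes were at least 2-fold lower in IR12, with a sum of 1047 FPKM in CTRL and 202.8 FPKM in IR12, and Glul, the most abundant, at 754 and 126 FPKM; on the TPM scale 4 of the 6 were past 2-fold. Of 6 leukocyte genes 5 were at least 2-fold higher, with a sum of 11.5 and 123 FPKM; Lyz2, the most abundant, was at 9.73 and 76.9 FPKM, and S100a8 was listed at 0 in CTRL. Of the astrocyte genes Gfap, also made by reactive Müller glia, was at 2.95 and 21.9 FPKM in a sum of 3.002 and 21.97 FPKM. Pax2, listed at 0 in CTRL and at 0.0317 FPKM in IR12, and Aldh1l1, at 0.0516 and 0.0302 FPKM, were too low to be compared. Müller glia genes thus lay lower, and leukocyte genes and Gfap higher, in the library with more Hbegf and Btc. Surface epithelium genes summed to 12.4 and 16.2 FPKM, with Krt12, the most abundant in IR12, at 0.874 and 12.5 FPKM, Cdh1, the most abundant in CTRL, at 10.7 and 1.62 FPKM, and Krt5 and Krt14 listed at 0 in CTRL. Of these epithelial genes 1 was at least 2-fold higher and 1 at least 2-fold lower. Their part in the result was not tested, nor was that of the Müller glia, leukocyte and astrocyte genes.

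The other marker lists differed less. Microglia genes summed to 12.1 FPKM in CTRL and 12.5 FPKM in IR12, and endothelial genes to 5.71 and 5.72 FPKM, but both lists had log2 ratios above and below 0 as deposited. Of the microglia genes Aif1, the most abundant, had a log2 ratio of 0.38, P2ry12 of -0.69 and Cx3cr1 of -0.36. Of the endothelial genes Cldn5, the most abundant in CTRL, had a log2 ratio of -0.57, Cdh5 of 0.48 and Vwf, the most abundant in IR12, of 0.24. None of these log2 ratios was past 2-fold as deposited, although P2ry12 was 2.56-fold lower in IR12 by FPKM alone. Of pigment epithelium genes, with a sum of 88.8 and 115.8 FPKM led by Ttr, only Rpe65 was past 2-fold as deposited, at 11.1 and 4.88 FPKM, while on the TPM scale its log2 ratio was -0.46 and those of Rgr and Ttr were 1.22 and 1.13. Retinal ganglion cell genes summed to 257 and 204 FPKM (Nefl most abundant), and blood genes to 20.8 and 35.3 FPKM (Hbb most abundant), none of them past 2-fold as deposited, though on the TPM scale the log2 ratio of Hbb was 1.37.

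The genes Btc, Areg, Ereg and Epgn lie on chromosome 14 within 402 kb, from the start of Btc to the end of Epgn, in rn6. Btc is 249 kb from Areg (chr14:18521930-18531179). Areg lies 45.2 kb from Ereg (chr14:18576355-18591394), and Ereg 35.2 kb from Epgn (chr14:18626644-18634309). In this group Btc was at least 2-fold higher in IR12, while its neighbours Areg, Ereg and Epgn stayed under 1 FPKM in both libraries. The chemokine genes beyond them begin with Cxcl2, 97.1 kb from Epgn, listed at 0 in CTRL and at 3.32 FPKM in IR12. Cxcl1 was at 1.35 and 19.1 FPKM. The ligand genes with low values thus lay between Btc and chemokine genes whose levels were higher in IR12. Mthfd2l, between Epgn and Cxcl2, was at 2.77 and 3.47 FPKM. No other gene of the table overlapped a member's locus except a U6 RNA at Erbb2 (chr10:86367596-86391728), listed at 0 in both libraries.

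**Figure D5:**
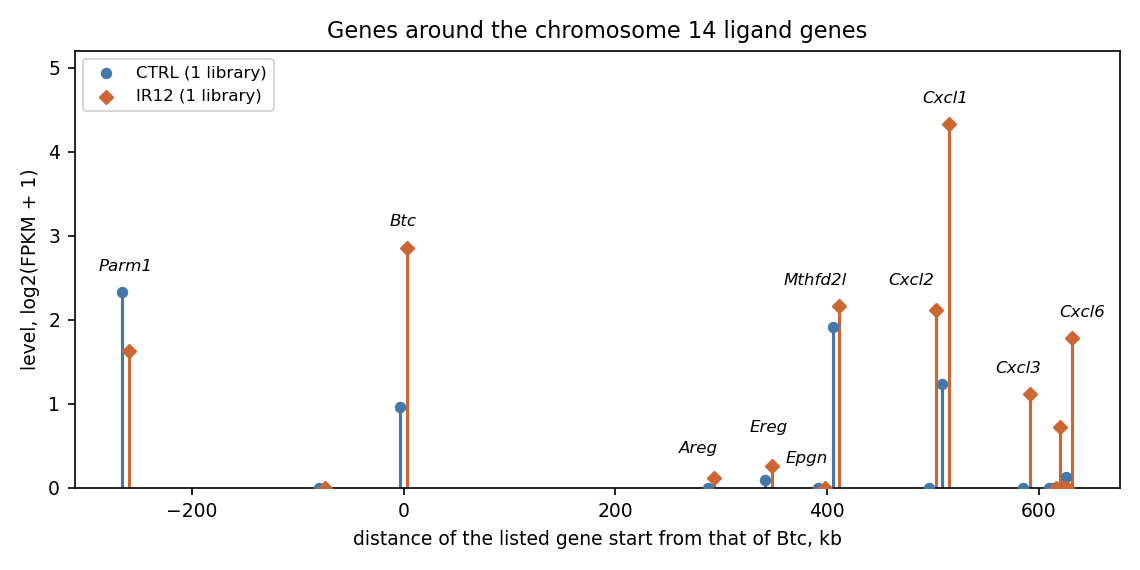
Level of each gene around the chromosome 14 ligands, as log2(FPKM + 1), against the distance of its start from that of Btc in kb, with a circle for CTRL and a diamond for IR12, set slightly apart. Btc is at 0.945 and 6.26 FPKM, whereas Areg, Ereg and Epgn stay under 1 FPKM.

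The bases before the start of Hbegf and Btc are shown because these members were past 2-fold together. RefSeq promoters of build GRCr8 were found for 8 of the 10 members, with Ereg and Erbb3 missing. In the 250 bases before each start, both strands were searched for the AP-1 motif TGANTCA, the cAMP response motif TGACGTCA, the STAT motif TTCNNNGAA, the TATA box TATAAA and the GC box GGGCGG. Capitals mark any match. The runs are chr18:28390221-28390470 on the minus strand for Hbegf and chr14:16992418-16992667 on the plus strand for Btc, both 5′ to 3′.
Hbegf: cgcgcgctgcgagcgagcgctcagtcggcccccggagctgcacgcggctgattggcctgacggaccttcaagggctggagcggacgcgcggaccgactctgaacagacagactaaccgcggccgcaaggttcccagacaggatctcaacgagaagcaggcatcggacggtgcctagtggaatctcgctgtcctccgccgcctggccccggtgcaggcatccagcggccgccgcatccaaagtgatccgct
Btc: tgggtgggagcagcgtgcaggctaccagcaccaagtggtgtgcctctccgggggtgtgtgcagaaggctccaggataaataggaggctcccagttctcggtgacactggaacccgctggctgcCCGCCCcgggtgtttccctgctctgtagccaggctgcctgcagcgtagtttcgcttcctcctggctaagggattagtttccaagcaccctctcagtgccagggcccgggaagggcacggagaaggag

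The Hbegf run held none of the 5 motifs, which says only that these letters are not in this window. The Btc run held 1 GC box, read as CCGCCC, that began 127 bases before the start. Over all 33469 promoters, 6.34% held the AP-1 motif, 1.59% the cAMP response motif, 7.67% the STAT motif, 12.9% the TATA box and 30.5% the GC box. Areg, which was hardly measured in either library, had a cAMP response motif 91 bases, a GC box 82 bases and a TATA box 61 bases before its start. Tgfa, Egfr and Erbb2 each had 1 GC box, and Epgn and Egf had none of the 5 motifs. The share of G and C was 67.6% for Hbegf and 62.8% for Btc, against a median of 51.2% over all promoters. It was 74.4% for Tgfa, 69.2% for Erbb2, 63.6% for Egfr, 54.4% for Areg, 51.6% for Egf and 41.2% for Epgn. A high share was thus not particular to Hbegf and Btc.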

How the data were processed

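The deposited table holds gene FPKM values that the authors made from 1 CTRL and 1 IR12 library of rat retina. The submitters' processing notes name STAR 2.5.2b, Cuffdiff 2.2.0 and build rn6, and the step that gave FPKM is not given in the sources used here. The sources differ on whether the library kit was for mRNA or total RNA.

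Log2 ratios were taken of (FPKM + 1), IR12 over CTRL, for genes of at least 1 FPKM in at least 1 library, and counted past 2-fold without a test, since each group had 1 library. Where a symbol was listed more than once, the entry with the higher mean was used. Listed starts were taken as 0-based and printed with 1 added. The worth of 1 read was fitted on olfactory receptor genes of 900 to 1000 bases, from 2 gene lengths in CTRL and 8 in IR12. Intervals are exact conditional 95% intervals from binomial counts, for 1000 effective bases.

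Members and lists were chosen with earlier results of these data known. Named were all members, Erbb4 and the neuregulins, the 3 highest and 3 lowest log2 ratios and the most abundant gene of each other pathway list, and the marker genes needed; genes of the chromosome 14 neighbourhood were named for their position. Some genes taken by this rule are not reported here. Ier2, Trp63, Pecam1 and Hba1 were not matched by symbol and were not analysed here. Alternatives were a pseudocount of 0.1, the TPM scale, the same sum without small RNAs, centring on the median gene, a minimum of 5 FPKM or none, and a limit of 1.5-fold. Python 3.11.15 was used, with scipy 1.17.1 for intervals, pandas 2.3.3 and numpy 2.4.6 for tables and matplotlib 3.10.9 for plots.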

Additional observations from a re-analysis of the deposited data

How the results depend on the processing

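The counts of members at least 2-fold higher (2) and lower (0) came out the same under all 7 alternatives run. Dropping the minimum could not change any count, since passing 2-fold with 1 added to each value needs at least 1 FPKM. Of 100 alternative values over 16 results, 86 stayed within their counting interval (log2 ratios) or within 1.5 times the count (lists), and 14 moved. The counts without a minimum are among the 86 and add nothing to the check. The TPM scale moved the log2 ratio of Hbegf from 1.68 to 2.27 and that of Egfr from 0.40 to 0.96, each beyond the interval on the log2 scale (1.44 to 1.93 and 0.10 to 0.73), since every ratio is raised there by 0.65 before the pseudocount. It also gave 4 genes higher for ligand release (0 as deposited) and 4 for signal relay (1), and 0 lower for the ERK response (1). With a pseudocount of 0.1, 2 ligand release genes were higher. Without small RNAs in the scaling, 1 signal relay gene was lower (0). With a minimum of 5 FPKM, 1 inhibitor gene was higher (2), as fewer genes were compared. The ERK response genes higher were 8 (9 as deposited) with this minimum, with centring and without small RNAs. With a limit of 1.5-fold, 5 ligand release and 3 signal relay genes were higher, while 1 gene of Erbb4 and the neuregulins, 1 inhibitor, 1 signal relay and 2 ERK response genes were lower. Over all genes at this limit 14.8% were higher and 13.7% lower, and the 3 of 25 signal relay genes lay near that share. No paired analysis was possible because each group had 1 library. Depth limits what can be said of Areg, Ereg, Epgn, Erbb2 and Erbb3, and all intervals leave out the variation between animals.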

Other observations

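Genes whose proteins carry EGF-like domains without being ErbB ligands were looked up after the values had been seen. Egfl6, which encodes a secreted matrix protein, was at 3.69 FPKM in CTRL and 0.356 FPKM in IR12, 10.3-fold lower in IR12 (log2 ratio -1.79). Egfl8 was at 3.22 and 1.58 FPKM (log2 ratio -0.71). Egflam, the gene of pikachurin, a protein of the photoreceptor ribbon synapse, was at 49.8 and 69.4 FPKM (log2 ratio 0.47), and Egfl7, a gene of endothelial cells, at 1.04 and 1.64 FPKM (log2 ratio 0.37). Egfem1 stayed under 1 FPKM in both libraries. By the log2 ratio of (FPKM + 1), Egfl6 was past 2-fold as deposited, and Egfl8, 2.03-fold lower in IR12 by FPKM alone, was not. On the TPM scale Egfl6 stood at a log2 ratio of -1.38 and Egflam was past 2-fold on the higher side at 1.11.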
